A study of Drosophila melanogaster with 2 samples.

Results

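The weak distal regions of a chromatin immunoprecipitation (ChIP-seq) experiment on the *Drosophila melanogaster* protein Her are described here. They are the regions of the authors' relaxed list that overlapped no peak past the threshold of the irreproducible discovery rate (IDR) by even 1 bp, and whose summit lay more than 500 bp from every annotated transcription start site (TSS). By this rule 17270 of the 30000 regions in the pooled dm6 list (57.6%) were weak distal regions. The study held 1 group of 2 biological replicates. Each was whole embryos of both sexes, 0 to 24 h old, of a transgenic line that carried Her with a GFP tag at its C-terminus, and chromatin was precipitated with an antibody against GFP. The notes name 1 control that both replicates share. Whole embryos mix all tissues and all stages of the first day, so a region used in few cells and a region weakly bound in many cells cannot be told apart. With 1 group no comparison between conditions and no test was possible, and the spread is given by the list of each replicate.

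*her* (*hermaphrodite*) encodes a zinc finger protein that acts in somatic sex determination, where it is needed for the female-specific expression of *Sex-lethal* and of yolk protein genes. Transcription factors bind promoters and also distal elements, many of which lie in introns or between genes and act as enhancers or silencers. A relaxed list is meant to hold real binding sites together with background, and the IDR procedure sets its threshold where the ranks of the replicates stop matching. A weak region is therefore a place with some enrichment of reads and not a called binding site. Signal below is the authors' value per region, on a scale that the deposited notes do not give.

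The sequences of the 8 strongest weak distal regions that were found in both replicate lists are shown because they stand next to the threshold. Each holds the summit base and 50 bases on each side of it on the plus strand, 5′ to 3′, from the RefSeq assembly of Release 6 (dm6). Regions of 1 chromosome arm are left out of the printed sequences. Nearest names the protein-coding gene with the closest TSS, and a TSS of another kind of gene may be closer. Capitals mark 5 6-mers on either strand, whose frequencies are described further on. The first is ACAGTG, the next are CACTGA and with it ACACTG, and the last are AGTGTA together with CAGTGC.
Intergenic, nearest CG42831, chr3L:10822740-10822840: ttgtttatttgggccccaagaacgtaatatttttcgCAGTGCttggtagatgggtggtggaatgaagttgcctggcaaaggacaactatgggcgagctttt
Intergenic, nearest hry, chr3L:8696584-8696684: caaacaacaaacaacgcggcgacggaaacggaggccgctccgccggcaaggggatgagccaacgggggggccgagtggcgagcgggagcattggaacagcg
Intergenic, nearest IP3K1, chr2L:9779241-9779341: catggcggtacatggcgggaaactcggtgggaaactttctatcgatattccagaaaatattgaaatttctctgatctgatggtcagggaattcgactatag
Intron of inaE, chrX:13789124-13789224: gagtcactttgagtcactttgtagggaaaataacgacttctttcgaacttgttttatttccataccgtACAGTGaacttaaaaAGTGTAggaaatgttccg
Intron of vri, chr2L:5293284-5293384: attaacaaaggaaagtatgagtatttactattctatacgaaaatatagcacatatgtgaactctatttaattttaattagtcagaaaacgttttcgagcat
Intron of msi, chr3R:25531918-25532018: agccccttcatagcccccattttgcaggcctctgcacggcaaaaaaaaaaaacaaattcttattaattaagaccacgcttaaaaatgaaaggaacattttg
Intron of Doa, chr3R:28904317-28904417: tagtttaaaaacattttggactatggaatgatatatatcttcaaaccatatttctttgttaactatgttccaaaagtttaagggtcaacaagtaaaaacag
Intron of grp, chr2L:16689995-16690095: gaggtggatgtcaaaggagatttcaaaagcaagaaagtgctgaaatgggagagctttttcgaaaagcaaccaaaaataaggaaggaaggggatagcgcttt
Of these 8 sequences, 2 held a marked 6-mer, those near CG42831 and in inaE. Their GC content ran from 25.7% in vri to 67.3% near hry.

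A further set shows the strongest regions whose printed window held 4 or 5 of the 6-mers, outside UTRs. They were picked after the 6-mers had been counted.
Intron, nearest CG15468, chrX:4970095-4970195: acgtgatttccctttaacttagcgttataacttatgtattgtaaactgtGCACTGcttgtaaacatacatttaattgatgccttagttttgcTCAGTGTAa
Intron of Atg18b, chr2L:21219889-21219989: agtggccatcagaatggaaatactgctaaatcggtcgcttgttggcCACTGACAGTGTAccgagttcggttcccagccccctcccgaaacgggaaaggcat
Intergenic, nearest CG15172, chr2L:19021862-19021962: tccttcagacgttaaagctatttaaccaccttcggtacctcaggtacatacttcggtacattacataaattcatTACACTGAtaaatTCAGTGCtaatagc
Intron of SIFaR, chr3R:21288548-21288648: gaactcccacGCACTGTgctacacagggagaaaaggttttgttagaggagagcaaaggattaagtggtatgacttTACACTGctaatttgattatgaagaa
In Atg18b the marked letters form 1 run across the centre, and in the other regions they stand in separate blocks. Pooled signals were 70.4 near CG15468, 69.9 in Atg18b, 66.5 near CG15172 and 61.4 in SIFaR.

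The last set holds the 2 strongest regions in coding exons, with the same arm left out, also picked with their values known.
Coding exon of neb and fok, chr2L:20082856-20082956: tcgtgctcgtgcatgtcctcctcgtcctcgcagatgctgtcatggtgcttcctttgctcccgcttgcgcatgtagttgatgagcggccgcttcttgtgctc
Coding exon of Gbs-70E, chr3L:14547250-14547350: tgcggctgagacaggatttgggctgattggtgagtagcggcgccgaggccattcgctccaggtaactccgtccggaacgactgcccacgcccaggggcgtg
Neither held a marked 6-mer, and their GC content was 58.4% and 65.4%. The pooled signal in neb and fok was 89.6, with 31.0 in replicate 1 and 60.9 in replicate 2. The region in Gbs-70E had a pooled signal of 79.3, with 30.5 and 45.3 in the replicates.

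The weak distal regions formed a continuum of signal that ended at the threshold. Pooled signal ran from 21.1 to 90.7 with a median of 30.8 (quartiles 25.05 and 41.6). The weakest thresholded peak had 90.75 and the strongest weak distal region 90.73, so position on the signal scale fixed the membership and no contrast of signal is a result. The 7853 weak regions within 500 bp of a TSS, called weak promoter regions here, had a median of 39.5. The 1438 thresholded peaks with distal summits had a median of 138. The deposited −log10 q-value of the weak distal regions had a median of 0.833 and reached 4.13 in 1182 of them, the value that every thresholded peak carries. Width was 404 bp in 17266 of the regions. At the 500 bp boundary, 465 weak distal regions lay 501 to 550 bp from a TSS with a median signal of 33.7, and 438 weak promoter regions lay at 451 to 500 bp with 32.8. The same rule gave 17130 regions in the list of replicate 1 and 17527 in that of replicate 2.

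**Figure D1:**
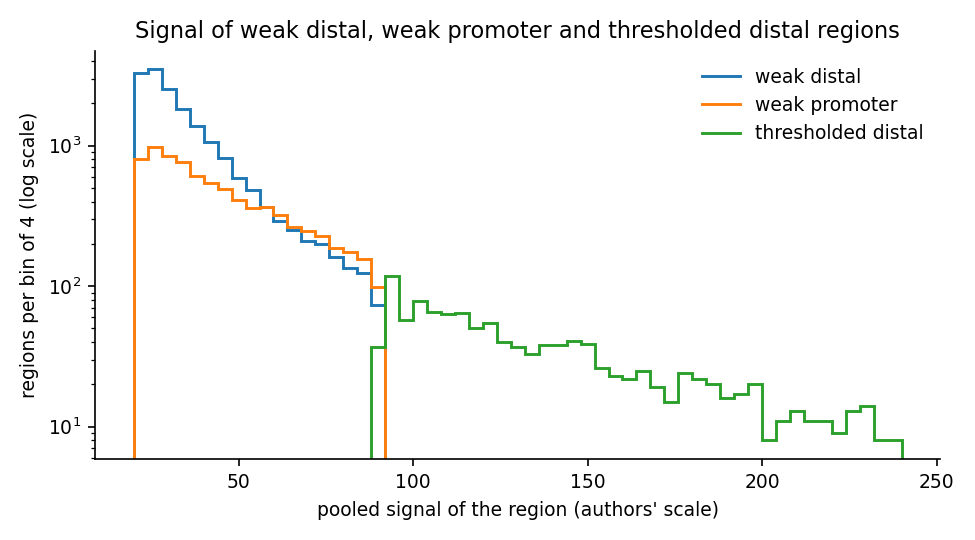
The step lines give the number of regions (log axis) per bin of 4 units of pooled signal for weak distal, weak promoter and thresholded distal regions. The weak sets end where the thresholded peaks begin, near 90.7, and 229 thresholded distal peaks above the plotted range are not drawn.

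Among the 20 strongest weak distal regions, with signals of 90.04 to 90.7, 13 lay in introns. Introns of jing, which encodes a zinc finger protein of border cell migration and tracheal development, held 2 of them, both on 2R. The gene vri encodes a bZIP repressor of the circadian clock, msi (musashi) an RNA-binding protein of asymmetric division, Doa a LAMMER kinase and grp the checkpoint kinase Chk1. Introns of inaE (a diacylglycerol lipase), spin (a lysosomal transporter), Drak (a kinase), Zdhhc8 (a palmitoyltransferase), CG32486 and CG30460 held 1 each, and 1 was in an intron outside protein-coding gene bodies, nearest plh. The 5 intergenic ones were nearest CG42831, hry (hairy, the pair-rule repressor), IP3K1 (an inositol trisphosphate kinase), CG8034 and CG8854. The others lay in a 3′ UTR of Fnta, which encodes a farnesyltransferase subunit, and in a non-coding exon nearest CG34460. Here nearest counts only TSSs of protein-coding genes. That of hry was 20679 bp away, and another annotated TSS was at 3931 bp. These distances were 7971 and 2354 bp for CG42831, 6176 and 1564 bp for CG34460, and 5423 and 830 bp for plh.

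All 20 had a summit within 200 bp in both replicate lists, but the replicates contributed unequally. The strongest, near CG34460 on 2R, had a signal of 77.6 in replicate 1, with rank 1953, and 20.6 in replicate 2, with rank 13808. The region near CG8034 on X had 68.1 and 20.9. The region near hry had 35.8 in replicate 1 and 63.8 in replicate 2, the opposite order. In grp the values were 56.8 and 48.4, and in the jing regions 42.8 and 47.3, and 54.1 and 37.5. By rank, 15 of the 20 stood higher in replicate 1, whereas over all regions matched in both lists 3637 of 7559 (48.1%) did.

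The region in grp lay 10354 bp from the body of *her* itself on 2L. No weak distal summit lay inside the *her* body. The nearest was 1393 bp away, at chr2L:16680882-16681285 in a coding exon, with a signal of 23.6, and it was matched in replicate 2 alone. Others lay 6921 bp (signal 49.9) and 10588 bp (51.8) away.

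Weak distal regions lay mostly in introns and, more than thresholded peaks, in coding exons. Introns held 52.8% of the summits (exact 95% interval 52.1 to 53.6), with 53.9% in the list of replicate 1 and 50.8% in that of replicate 2. They made up 46.4% of the genome more than 500 bp from a TSS, called the distal genome here. It was counted only between the first and last listed region of each arm. On 2R it began at base 4595020 and on 3R at base 4081718, and on 3L it ended at base 23338381 of 28110227. Coding exons held 21.6% (21.0 to 22.2; 19.9% and 22.8% in the replicates), against 17.4% of the distal genome. Intergenic sequence held 18.0% (17.4 to 18.6; 18.3% and 18.5%), against 27.5%. The share in 3′ UTRs was 4.198% against 6.70% of the distal genome, and that in 5′ UTRs was 2.09% against 1.03%. Thresholded distal peaks had 70.5% of their summits in introns and 1.04% (15 of 1438) in coding exons. The intervals cover counting error over regions only, and neighbouring regions are not independent.

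This mean hid a steep gradient. The regions were ranked by pooled signal and split into 10 deciles of 1727 regions, decile 1 being the strongest. Coding exons held 5.56% of decile 1, 13.7% of decile 2, 18.8% of decile 3 and 27.9% of decile 10. Introns held 64.3% of decile 1 and 47.9% of decile 10, and intergenic sequence 22.4% and 16.2%. For introns and coding exons decile 1 lay between the thresholded distal peaks and all other deciles. In deciles 4 to 10 the coding exon share stayed between 22.7% and 27.9% with no steady order. The replicate lists, divided in the same way, showed the same direction: coding exons held 5.14% of the strongest and 24.8% of the weakest decile of replicate 1, and 10.7% and 26.6% in replicate 2.

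**Figure D2:**
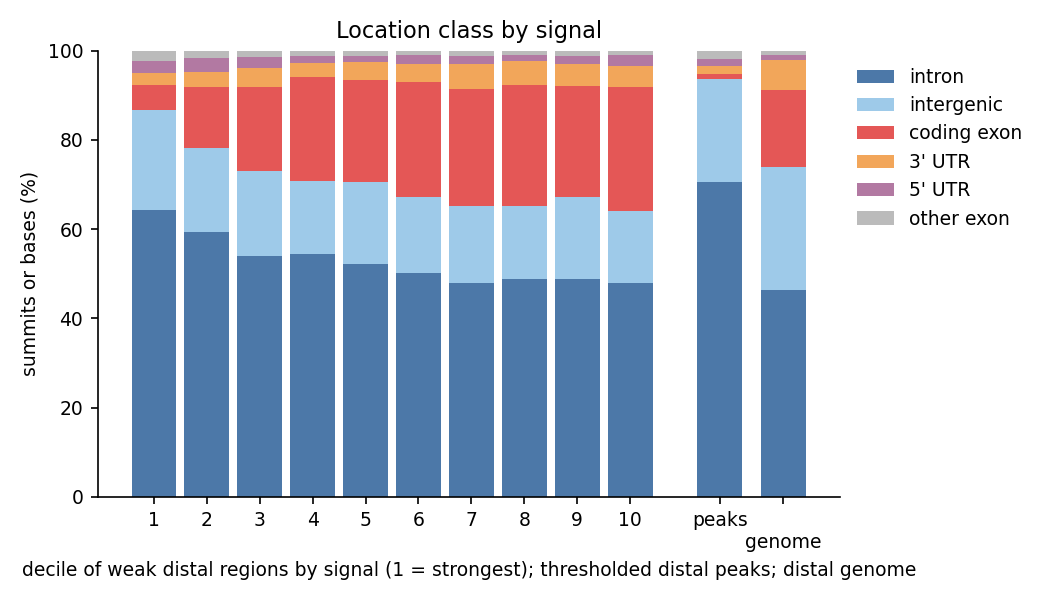
The stacked bars give the percentage of summits by location class for deciles 1 (strongest) to 10 of the weak distal regions and for thresholded distal peaks ("peaks"), and of bases for the distal genome ("genome"). The coding exon share is 1.04% in thresholded distal peaks, 5.56% in decile 1 and 27.9% in decile 10.

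The strongest of the weak distal regions were mostly found again in both replicates, and the weakest mostly were not. A region was called matched when a replicate list held a summit within 200 bp. The nearest summit was taken, and 1 summit could match several neighbouring regions, so the counts include shared matches. At grp, the regions with pooled signals of 90.4 and 51.8 both took the replicate 2 value of 48.4. Over all weak distal regions, 12052 (69.8%) were matched in replicate 1 and 11648 (67.4%) in replicate 2. Both lists held 7559 (43.8%, exact 95% interval 43.0 to 44.5), and neither held 1129 (6.537%). In decile 1, 96.4% were matched in both and none in neither. In decile 5 the share in both was 44.9%, and in decile 10 it was 5.10%, with 28.2% in neither. The pooled list was made from the same replicates and each list stops at 30000 regions, so these shares are a description. Between the replicate lists themselves, 82.1% of the strongest and 27.3% of the weakest decile of replicate 1 were matched in replicate 2, and the reverse gave 80.8% and 26.2%.

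Of the 1727 regions in decile 1, 62 were not matched in both lists, 40 of them found in replicate 1 alone and 22 in replicate 2 alone. The strongest of these, named after their values were seen, was in an intron of REPTOR, which encodes a transcription factor downstream of TOR signalling, with 83.1 in replicate 1. The next was in an intron of Trl, which encodes the GAGA factor, with 73.9 in replicate 1. Kdm2, which encodes a histone demethylase, had a region with 41.7 in replicate 2 alone. It belonged to a run of 4 weak distal regions in 1301 bp, chr3R:9056943-9058243.

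**Figure D3:**
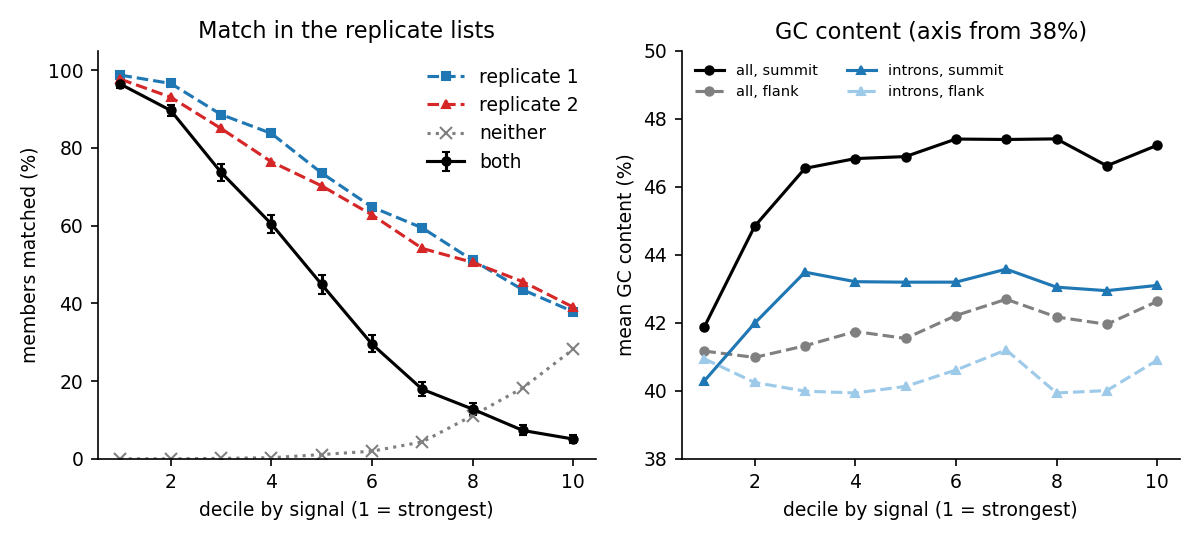
The left panel gives the percentage of weak distal regions matched within 200 bp in each replicate list, in both (with exact 95% intervals) and in neither, by signal decile. The right panel gives the mean GC content at summits and in flanks for all regions and for those in introns. Matching in both falls from 96.4% to 5.10%, while summit GC content is lowest in decile 1, at 41.9%.

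GC content moved with signal as well. Within 50 bp of the summit the weak distal regions held 46.3% GC on average, against 41.8% in flanks, which are equally wide windows with their centre 350 bp to the left, and 42.4% in the distal genome. The difference was 4.46 percentage points, with 3.52 in replicate 1 and 4.52 in replicate 2. Thresholded distal peaks had the opposite sign, with 38.2% at summits and 41.5% in flanks. In decile 1 the summits held 41.9% and the flanks 41.2%, a difference of 0.714 points, whereas decile 10 held 47.2% and 42.6%. Coding exons are GC-rich: summits in them held 57.2% against 42.7% in introns. Among intron summits alone, GC content was 40.3% in decile 1, 42.0% in decile 2 and between 42.9% and 43.6% in the later deciles, so the step from decile 1 was present there too. The part that GC content has in the signal of weak regions was not tested. Soft-masked repeats, which make up 17.9% of distal bases, covered most of the window at 3.80% of summits and in 7.06% of flanks. The first share counts single bases and the other shares count windows, so only summits and flanks are like measures.

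The order of the 6-mers at summits was not the same along the gradient. Over all weak distal regions, the 6-mers with the highest ratio of summits to flanks were GC-rich: GGCGCC had a log2 ratio of 0.84, CGGCCG had 0.79 and GCTCCC had 0.74, followed by CAGTGC with 0.71. The lowest was TATATA (−1.09). GGCGCC had 0.93 in decile 1, 0.49 in decile 10 and 0.84 in thresholded distal peaks. It stood at 2.37% of summits in both deciles, so these 2 ratios differ through the flanks alone (1.22% and 1.68%). CGGCCG had 0.34 in decile 1 and 0.94 in decile 10. Decile 1 gave another order, led by AGTGTA with 1.46. The first 6 also held ACACTG with a ratio of 1.30, CAGTGC with a ratio of 1.29, CACTGA with a ratio of 1.26 and ACAGTG with a ratio of 1.21. The remaining one, GGTCTA (1.30), occurred at 41 summits. These 5 share letters, since all of them except AGTGTA hold the 5-mer CAGTG on 1 strand, so they are not separate observations. They were picked from decile 1, so their frequency there is a description. All 5 were also above flanks in thresholded distal peaks, with log2 ratios of 1.03 to 1.43.

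ACAGTG was found at 9.44% of decile 1 summits and in 4.05% of flanks. In decile 10 it was found at 4.52% and 3.94%, and in thresholded distal peaks at 9.67% and 3.55%. Any of the 5 6-mers stood within 50 bp of 471 summits of decile 1 (27.3%) and in 13.0% of flanks. The share was 16.8% in decile 10 (flanks 14.0%), 26.0% in thresholded distal peaks (flanks 13.6%) and 20.8% in weak promoter regions (flanks 15.6%). In thresholded distal peaks the 6-mers were most frequent 75 bp from the summit, beyond these windows. The shares within 50 bp, also those of ACAGTG, therefore do not rank decile 1 against thresholded distal peaks. In the strongest deciles of the separate replicate lists the share was 25.3% and 25.1%, against 13.8% and 14.0% in flanks. Decile 1, from which the 6-mers were picked, was made from these replicates, and 96.4% of it was matched in both lists. The replicate values are therefore a description and no separate check. The 5-mer CAGTG alone was found at 26.1% of decile 1 summits and 14.7% of flanks, and at 20.03% and 16.9% in decile 10. A match of letters is not a binding site, and most decile 1 summits held none of the 5.

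Along the sequence, the 6-mers of thresholded distal peaks stood in flanking maxima 75 bp from the summit, where 9.39% of 25-base windows to the left and 8.76% to the right held one, against 5.63% at the summit. In decile 1 the share was 6.89% at 25 bp to the left, 6.83% at 25 bp to the right, and between 2.26% and 4.05% at distances of 200 bp or more. Decile 10 had 4.81% at the summit.

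**Figure D4:**
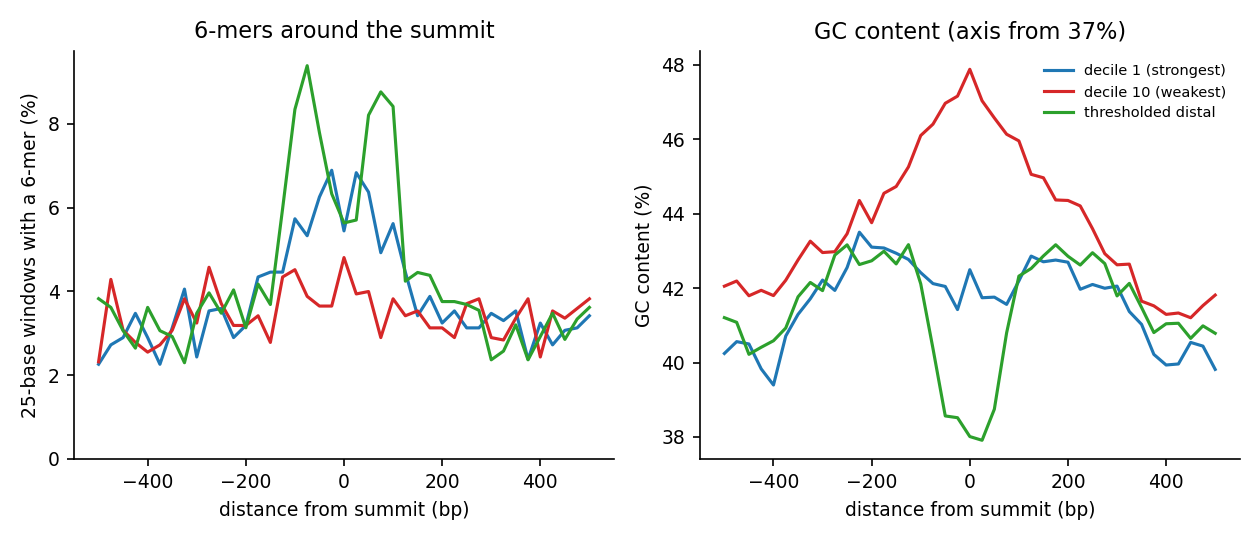
The left panel gives the percentage of 25-base windows that hold any of the 5 6-mers by distance from the summit, and the right panel the GC content of these windows, for decile 1, decile 10 and thresholded distal peaks. At the summit GC content is 47.9% in decile 10, 42.5% in decile 1 and 38.01% in thresholded distal peaks.

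A list of 27 known sequence motifs was searched on both strands in the same windows, and 15 were more frequent at summits than in flanks (16 in replicate 1 and 15 in replicate 2). The repeat GAGAG, the core of sites for the GAGA factor, was found at 14.3% of summits and 11.98% of flanks, with 17.1% and 12.3% in decile 1, 11.8% and 12.1% in decile 10, and 15.9% and 15.6% in thresholded distal peaks. CAGCTG, an E-box of myogenic and proneural factors, was found at 6.13% and 4.60%. The homeodomain core TAATTA was less frequent at summits (4.00%) than in flanks (6.72%), as was TATAAA (7.46% and 13.0%). Both hold only A and T, as does TATATA, the lowest 6-mer, and summits were richer in GC than flanks. Whether their shares reflect more than base content was not tested. In thresholded distal peaks TAATTA was at 5.29% and 7.09%, and TATAAA at 11.9% and 11.6%. ATCGATA, within the site of the promoter factor DREF, was at 1.04% of weak distal summits and 1.19% of flanks, and at weak promoter summits at 5.34% against 2.38%. GGTCACA, from the site of the promoter factor M1BP, was at 0.793% and 0.666%, and at weak promoter summits at 2.83% against 1.39%. For weak distal regions this direction turned in the list of replicate 2 (log2 ratio −0.0111) and with a promoter limit of 200 bp (−0.10).

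Position along the chromosomes was uneven to a moderate degree. X held 17.0% of the weak distal regions (exact 95% interval 16.4 to 17.6; 17.6% and 16.0% in the replicates) and 19.9% of the distal genome, whereas it held 20.4% of the thresholded distal peaks. Arm 3L held 22.8% of the regions and 19.7% of the distal genome. The small chromosome 4 held 104 regions (0.602%), against 1.03% of the distal genome. The strongest there, named after their values were seen, were nearest ey, the eye selector gene, with a signal of 80.6, and Sox102F, with 76.2. The median distance to the nearest TSS was 2203 bp, and 2128.5 bp in thresholded distal peaks. The nearest thresholded summit was 5786 bp away at the median, 5383 bp in decile 1 and 6977 bp in decile 10, and 1319 regions (7.64%) had one within 1000 bp. Annotated transposable elements touched 146 regions (0.845%), and INE-1 made 75 of these overlaps. Elements cover 5.79% of distal bases. The first share counts whole regions with any base in an element and the second counts single bases, so they are unlike measures.

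Weak distal regions were found in long genes more often than in short ones. Of 13945 protein-coding genes, 4606 (33.0%) held at least 1 weak distal summit in the gene body, 875 (6.27%) held 1 of decile 1, and 310 held 10 or more. By length, 4.50% of the 3487 shortest genes and 66.0% of the 3486 longest did. The shortest genes span 168 to 1179 bp, and the rule bars summits within 500 bp of a TSS. The rule therefore sets part of this contrast, and the size of that part was not computed. Eip75B, a nuclear receptor gene of the ecdysone cascade on 3L, held 67 regions in 113744 bp, the highest count. Next were bun (58), which encodes a TSC22-family protein, and hth (57), which encodes the homeodomain partner of Hox proteins. The Wnt receptor gene fz2 held 54, and Glut4EF, kirre and sbb held 52 each. CG46467, which overlaps Glut4EF and shares regions with it, held 49, rdx 43 and jing 39. Relative to length, rdx (6.62 per 10 kb of gene body), sbb (6.57) and bun (6.37) were above Eip75B (5.89), and kirre, which spans 394149 bp, had 1.32. All protein-coding gene bodies together had 1.54 per 10 kb, with 80.3% of the weak distal regions inside one. These densities count all bases of a gene body, also those near a TSS that the rule bars.

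The densest window of 100 kb, around plh and corto on 3R, held 63 regions, against a median of 11. Windows with Eip75B (58) and with emc (60), which encodes an inhibitor of bHLH proteins that acts in sex determination among other processes, were among the first 5. Most regions stood alone: 13933 overlapped no other weak distal region, and 3337 (19.3%) lay in runs of 2 to 4 overlapping ones.

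Genes whose promoter carried a thresholded peak held a larger share of the weak intron regions than of the intron bases. Such genes, with a thresholded summit within 500 bp of a TSS, numbered 2851 (20.4% of protein-coding genes). They held 58.6% of the weak distal summits in introns (exact 95% interval 57.5 to 59.6; 57.6% and 57.5% in the replicate lists), while they make up 35.2% of the distal intron bases. For coding exons the shares were 43.4% of summits (41.8 to 45.03; 42.8% and 42.1%) and 30.0% of bases. Decile 1 had 60.5% of its intron summits in such genes, and decile 10 had 53.3%.

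The counts in the lists of genes of embryonic functions are read against 33.0% of all protein-coding genes with a weak distal region, 1.54 regions per 10 kb of gene body and a median gene length of 2166 bp. The lists of hormone response genes, of signalling genes and of GATA factor genes with their cofactor gene ush were above that density. The 14 ecdysone response genes, with a median length of 36624.5 bp, had 199 regions or 3.12 per 10 kb. Eip75B held 67, EcR, the ecdysone receptor gene, 34 and Eip74EF, an ETS factor gene, 25. Of the 14 genes, 11 held a weak distal region. All 6 of the GATA factor genes and their cofactor gene ush did (median length 16826 bp), with 48 regions or 3.25 per 10 kb. The gene ush held 33 of these, grn 8 and srp, the blood and fat body GATA factor gene, 3. Of the 10 decile 1 regions of this list, 7 lay in ush, so its values rest mostly on ush. The density of the GATA factor genes without ush was not computed. Of 29 ligand and receptor genes 22 did (median length 9416 bp), with 231 regions or 3.54 per 10 kb. Here fz2 held 54, fz 33 and tkv, a BMP receptor gene, 26. Each density is a sum over its list, so in the ecdysone and signalling lists too the genes with most regions weigh most. Decile 1 regions were at 0.678 per 10 kb in the GATA list, 0.353 in the signalling list and 0.314 in the ecdysone list, against 0.144 over all gene bodies.

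Lists of patterning and tissue genes lay on both sides of the 1.54 per 10 kb over all gene bodies. Of 12 segment polarity genes 11 held a region (1.94 per 10 kb), among them ptc (7), the Hedgehog receptor gene, hh (6), its ligand gene, and inv (4), a homeodomain gene. Of 8 Hox genes 6 did (1.07 per 10 kb), with 14 regions in Antp, 9 in Ubx and 7 in abd-A. Of 21 leg, wing and eye selector genes 16 did (2.15 per 10 kb), where bab2 (12) and bab1 (10) followed hth. Of 17 mesoderm genes 10 did (1.85 per 10 kb), with 20 in how, an RNA-binding protein gene, 14 in Mef2, a muscle factor gene, and 5 in kn. Of 22 neuroblast and proneural genes 9 did (1.28 per 10 kb), of which brat, a translational repressor gene, held 23 and grh and nub 5 each. Of 12 gap and maternal genes 5 did, with 3 each in cad and knrl and 2 in Kr, and of 10 pair-rule genes 5, with 2 each in drm and odd and 1 in opa. Neither of these last lists held a decile 1 region. The symbols h (hairy, annotated as hry) of the pair-rule list and nos of the maternal list did not match the annotation, so these genes are not in the counts.

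Neuronal genes had fewer regions by length than all gene bodies together, but this was not particular to them. The Hox (1.07 per 10 kb), gap and maternal (1.27), neuroblast and proneural (1.28) and pair-rule (1.45) lists were below that density too. The 20 axon guidance and adhesion genes had 160 regions, 1.05 per 10 kb, with 24 in Ten-a, 23 in Sema1a and 20 in sli, the Robo ligand gene. The 13 ion channel genes had 24, or 0.397 per 10 kb, with 8 in Shal, 5 in KCNQ and 4 in para. Of 19 sex determination genes, the process *her* is known for, 9 held a region (47.4% against 33.0% of all genes). Their density of 1.01 per 10 kb was below the 1.54 over all gene bodies, with 6 in Sxl, 5 in emc and 5 in fru, and 2 of the 26 regions belonged to decile 1.

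Proteasome and ribosomal protein genes are short, and short genes seldom held a decile 1 region. Of all protein-coding genes of 1179 to 2166 bp, 0.631% did. The decile 1 counts of these lists are therefore too small to tell them apart. Of 32 proteasome genes, with a median length of 1390 bp, 18 held a weak distal region. There were 24 regions in all or 4.47 per 10 kb, and none of decile 1. Rpn2 and Rpn8 held 3 each and Rpn13 2. Of 76 cytoplasmic ribosomal protein genes 25 did (32.9%; 2.38 per 10 kb), and 2 of their 28 regions belonged to decile 1, or 0.170 per 10 kb against 0.144 over all gene bodies. There were 2 regions each in RpL4 and RpS29. The 10 genes of the Enhancer of split list, with a median length of 934 bp, held 3 regions or 3.25 per 10 kb. There were 2 in E(spl)m3-HLH and 1 in E(spl)m8-HLH, none of decile 1.

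**Figure D5:**
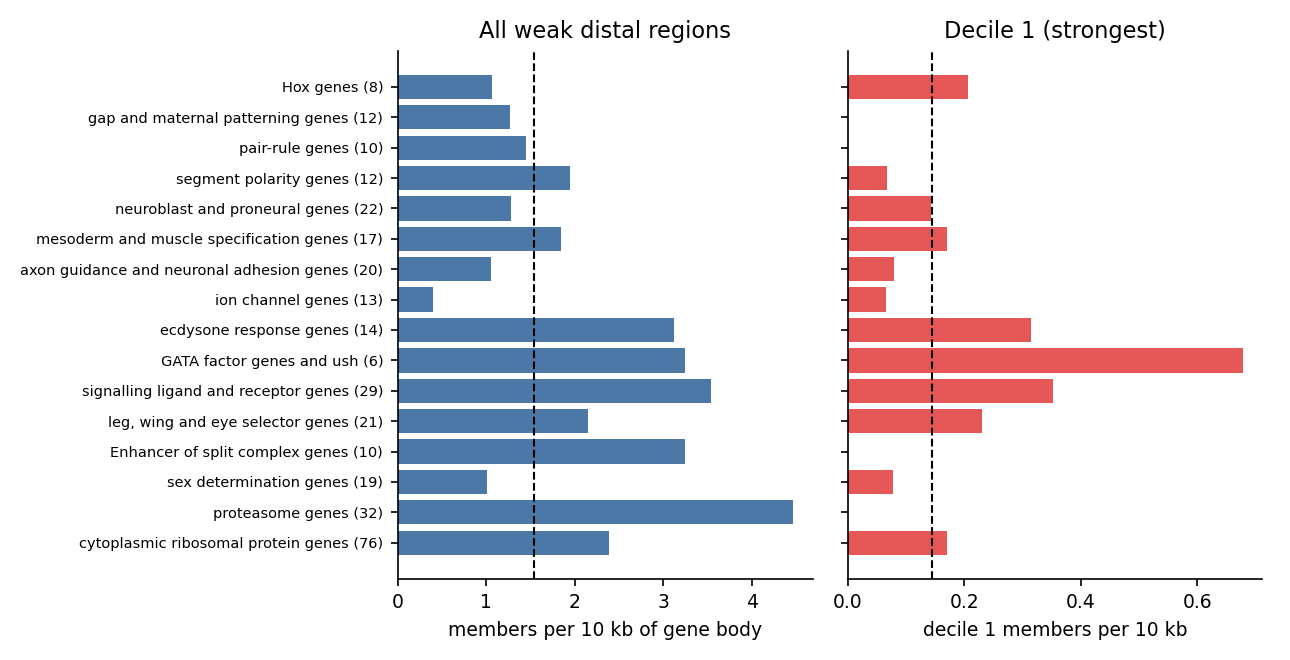
The bars give weak distal regions per 10 kb of gene body for each gene list (number of matched genes in brackets), for all regions on the left and for decile 1 on the right. Dashed lines give the value over all protein-coding genes, 1.54 and 0.144. Proteasome genes have the highest density of all regions (4.47) and none of decile 1. The GATA list has the highest of decile 1 (0.678), with 7 of its 10 such regions in ush.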

How the data were processed

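The authors deposited region lists on dm6 for each replicate, for both pooled, and for peaks past the IDR threshold. Lists on dm3 were not used here. The notes deposited with them say that ChIP and control alignments went into each list. The aligner and caller were not given in the sources used here. Each region's deposited signal is the authors' value on an unstated scale, and the deposited −log10 q-value is theirs too. Read counts, and so depth, are unknown.

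Summits were compared with Ensembl (release 115) transcripts and RefSeq sequence of Release 6, in 1-based coordinates. A summit with several annotations counted as UTR before exon and as exon before intron, with coding exons ahead of non-coding ones. Intervals are exact (Clopper-Pearson, 95%). log2 ratios of 6-mers compare windows of 50 bases on each side of summits and flank centres with a pseudocount of 1. Named genes are those of the 20 strongest regions, the 10 genes with most regions and the first 3 of each list, except for a gene that is not reported here. Of 325 listed symbols 321 matched, and nos, h, Dl and RpL37a were left out. Regions and lists were chosen with earlier results of these data known. Counting functions were tested on simulated data. Python 3.11.15, numpy 2.4.6, pandas 2.3.3, scipy 1.17.1 and matplotlib 3.10.9 were used.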

Additional observations from a re-analysis of the deposited data

How the results depend on the processing

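With all samples in 1 group, no paired analysis was possible because there was no second group. With a promoter limit of 200 bp the intron share was 49.5% and the median distance to a TSS 1734 bp. With 1000 bp the shares of introns, coding exons and intergenic sequence were 57.6%, 17.0% and 19.2%, and the median distances to a TSS and to a thresholded summit 3149 and 6345 bp. With 2000 bp, 9241 regions were left, with shares of 62.7%, 11.8% and 20.7%, masked summits at 4.37%, a GC difference of 3.48 points, distances of 4748 and 7369 bp, and 1827 genes. The genome's own shares at these limits were not computed. Widening thresholded peaks by 500 bp gave an intergenic share of 18.3% and distances of 2302 and 6362 bp, and an overlap of at least 50% gave 5668 bp to a thresholded summit. The stronger 8635 regions had shares of 56.9%, 16.8% and 19.0%, distances of 2088 and 5269 bp and 2899 genes. The weaker 8635 had shares of 48.7%, 26.4% and 17.0% and distances of 2309 and 6368 bp. Counting starts of transposable elements as TSSs, an alternative chosen after seeing the data, gave an intergenic share of 17.7%, elements at 0.123% and distances of 2048 and 5765 bp. Matching in both replicates was 32.5% within 100 bp, 55.5% within 500 bp and 53.8% with any shared base. The 2 replicate lists, each set against the thresholded peaks of both replicates, ranged from 18.3% to 18.5% intergenic and from 0.537% to 0.862% on chromosome 4. They had 0.800% to 1.03% with an element, 6079 to 6091 bp to a thresholded summit and 3.52 to 4.52 points of GC.

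Log2 ratios changed sign for GGTCACA with a limit of 200 bp (−0.10) and in the list of replicate 2 (−0.0111), but not in that of replicate 1 (0.32). With flanks to the right they changed for CAGGTAG (−0.0137) and CAGGTA (−0.0427). In the stronger 8635 regions they changed for TGACTCA (0.12), AGATAAG (0.0995), AGGTCA (−0.117) and CATCATC (−0.177). AGGTCA also changed with a limit of 2000 bp (−0.0304). AACAAAG changed in the list of replicate 2 (0.0134), in that of replicate 1 (0.0618) and with flanks to the right (0.0834). The cause of these changes was not tested. Read depth is unknown, each list stops at 30000 regions, and a region missing from a list may lie just below its end.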
